A study of Homo sapiens with 12 samples.

Results

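The HOXB cluster was taken as every measured CpG at chr17:48520000-48735000 (hg38), a stretch of 215 kb that holds the 10 protein-coding HOXB genes from HOXB1 to HOXB13. These were 1699 of the 3689712 CpGs with a level of 5-methylcytosine (5mC) and 1687 of the 3534314 CpGs with a level of 5-hydroxymethylcytosine (5hmC). All 1687 were among the 1699. SV-HUC-1 cells, a line of human urothelial epithelium immortalised with SV40, had received 2,6-dichloro-1,4-benzoquinone (DCBQ), a halobenzoquinone that forms when drinking water is disinfected, in the 3 DCBQ samples, or a blank solution in the 3 control samples. Treatment lasted 3 days in both groups, and all samples come from this immortalised line. Reduced representation bisulfite sequencing (RRBS) and its oxidative form (oxRRBS) were run on each condition with 3 libraries each. Each value column is named by condition and number and stands for 1 sample here. Whether these samples were cultured apart is not stated in the labels, and a p-value here reflects only how far they spread, which could be technical.

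HOX genes encode homeodomain transcription factors that give cells their position along the body axis. Within a cluster they lie in the order in which they act, from the head end (HOXB1) to the tail end (HOXB13), and all HOXB genes are read from the same strand. Polycomb and Trithorax complexes keep HOX genes silent or active, and methylation of the CpG-dense starts of HOX genes goes with lasting silence in many adult tissues and tumours. 5hmC is made from 5mC by the TET dioxygenases.

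The measured CpGs lay mainly in dense patches, and few fell into the RefSeq promoters that could be printed. PRAC2, a gene beside HOXB13 that is known from prostate and colon, had the most, with 15 of the 19 CpGs of one promoter and 5 of the 10 of another. These sequences (RefSeq, GRCh38.p14, plus strand, 250 bases before to 50 after the start) are shown because they carry the flank of HOXB13 base by base. Capitals mark the measured CpGs.
PRAC2, chr17:48722935-48723234: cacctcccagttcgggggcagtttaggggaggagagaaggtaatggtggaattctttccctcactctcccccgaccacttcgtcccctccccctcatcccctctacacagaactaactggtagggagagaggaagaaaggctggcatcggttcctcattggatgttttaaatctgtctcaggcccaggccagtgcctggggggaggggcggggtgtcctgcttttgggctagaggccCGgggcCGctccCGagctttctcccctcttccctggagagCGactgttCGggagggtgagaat
PRAC2, chr17:48723442-48723741: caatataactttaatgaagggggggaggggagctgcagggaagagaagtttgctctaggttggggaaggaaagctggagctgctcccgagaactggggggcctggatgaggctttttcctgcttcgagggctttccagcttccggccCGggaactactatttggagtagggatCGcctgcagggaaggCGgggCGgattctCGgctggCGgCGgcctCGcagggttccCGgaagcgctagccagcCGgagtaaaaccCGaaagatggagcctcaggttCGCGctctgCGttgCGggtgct
The 15 CpGs of the second averaged 89.22%, 89.82% and 89.92% 5mC in DCBQ samples and 90.30%, 87.19% and 88.22% in control samples, with single CpGs between 52.1% and 99.4%. The 5 CpGs of the first averaged 63.08%, 69.02% and 60.66% in DCBQ samples and 64.18%, 47.52% and 68.34% in control samples, with single CpGs between 23.3% and 86.2%. The measured CpGs of the second promoter were mostly methylated and those of the first intermediate, and the groups overlapped in each.

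MIR10A and MIR196A1, miRNA genes that lie among HOX genes, had no measured CpG inside them, but the windows measured beside them stood at opposite ends of the scale. Their main mature forms (RefSeq, minus strand) are given with the seed, bases 2 to 8, in capitals; the seeds differ.
miR-10a-5p, chr17:48579904-48579926: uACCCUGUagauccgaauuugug
miR-196a-5p, chr17:48632532-48632553: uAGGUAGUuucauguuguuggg
MIR10A lies beside HOXB4. Its start window held no measured CpG. In the window at its other end (chr17:48578338-48580338, 9 CpGs), which overlaps the HOXB4 window, 5mC was 0.74%, 2.66% and 2.93% in DCBQ samples and 3.81%, 3.72% and 2.69% in control samples. MIR196A1, whose product can cleave the HOXB8 mRNA, lies above HOXB9. Its start window (53 CpGs) read 91.84%, 91.94% and 92.70% in DCBQ samples and 92.20%, 92.34% and 91.99% in control samples. The window on the HOXB4 side of MIR10A was thus nearly unmethylated and that at MIR196A1 nearly fully methylated in each of the 6 samples, and the groups overlapped at both. On the other side of MIR10A the level was high. The nearest bin of 1 kb there with at least 5 CpGs, chr17:48581001-48582000 (7 CpGs), averaged 85.50% in DCBQ samples and 81.66% in control samples.

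No promoter CpG of HOXB1 was measured, although that promoter (chr17:48530962-48531261, minus strand) has 11. It holds the letters TGATNNAT, a form of the site bound jointly by HOX and PBX proteins, once when both strands were searched. It is shown because HOX proteins act on HOX genes through such sites, with the match in capitals.
HOXB1, chr17:48531119-48531146: gcttggggggTGATGGATgggcgctggg
The same letters occurred in 7.40% of 35116 RefSeq promoters of 300 bases, on either strand, so the match only describes the sequence.

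The cluster alternated between nearly unmethylated and heavily methylated blocks in these urothelial cells. Of the 1699 CpGs, 631 (37.1%) averaged under 20% 5mC over the 6 samples, 688 (40.5%) over 80%, and 380 (22.4%) lay between. Over all CpGs of the table the shares were 32.0%, 41.6% and 26.4%. Each sample gave nearly the same split: CpGs under 20% made up 36.96%, 37.79% and 37.43% in DCBQ samples and 36.85%, 37.43% and 37.37% in control samples. CpGs over 80% made up 40.20%, 39.96% and 40.26% in DCBQ samples and 40.73%, 40.14% and 38.79% in control samples.

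**Figure D1:**
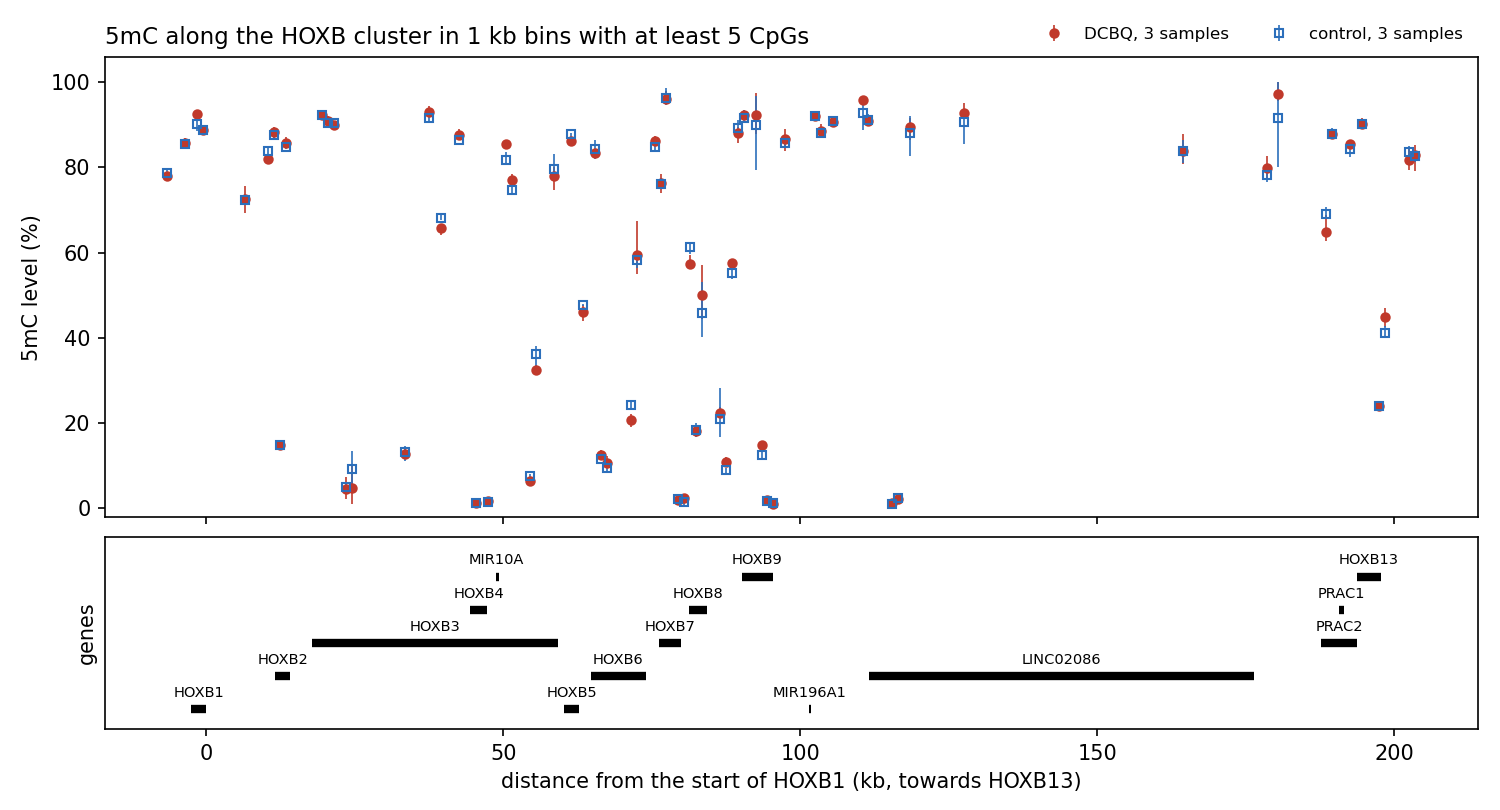
5mC level (%) in the 70 bins of 1 kb with at least 5 CpGs, against distance from the start of HOXB1 in kb; points are means of 3 DCBQ samples (filled) and 3 control samples (open), bars span the lowest to the highest sample, and gene spans are drawn below. Points of both groups lie nearly on each other, and levels jump between under 20% and over 80% at 12 places.

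Of the 215 bins of 1 kb in the stretch, 70 had at least 5 measured CpGs: 18 averaged under 20% 5mC, 34 over 80% and 18 between. Neighbouring measured bins jumped from one extreme class to the other at 12 of 69 steps, and 4 of these steps were between directly adjacent bins. A pair of these flanks one bin of HOXB2: chr17:48543001-48544000 (66 CpGs) averaged 14.77% in DCBQ samples and 14.80% in control samples, while the bins before and after it averaged 88.38% and 85.84% in DCBQ samples, and 87.61% and 84.83% in control samples. Another was inside HOXB9, where 92.21% in DCBQ samples and 89.97% in control samples gave way within 1 kb to 14.88% in DCBQ samples and 12.55% in control samples. The plot of 5mC along the cluster shows the same jumps in both groups.

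The longest stretch without a measured CpG was 15216 bp, at chr17:48678643-48693859, inside LINC02086. CpGs were dense up to HOXB9 (1272 CpGs, 11.96 per kb) and thin between HOXB9 and PRAC2 (246 CpGs, 2.67 per kb). These stretches averaged 45.53% ± 0.28 and 71.52% ± 0.38 5mC in DCBQ samples and 45.46% ± 0.33 and 71.04% ± 0.35 in control samples (SD, n = 3). From PRAC2 upwards, with HOXB13 (181 CpGs), the mean was 67.54% ± 0.65 in DCBQ samples and 68.12% ± 0.56 in control samples.

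Levels differed widely between the genes, and their order did not follow their order along the chromosome. For each gene a window ran from 1500 bp outside to 500 bp inside its start or, where the reference tables gave no strand, the gene end with more measured CpGs. Of 24 genes overlapping the stretch, 20 had at least 5 CpGs in that window. HOXB3 had 1, LOC105371811 had 4, and MIR10A and LINC03057 had none. Since the HOXB genes share a strand, this window is at the 3′ end of HOXB2, HOXB6 and HOXB8 and at the 5′ end of the others, and 5′ values are given for those genes too.

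HOXB1, an anterior gene that patterns the hindbrain, was methylated throughout. Its start window (chr17:48530511-48532511, 27 CpGs) read 86.16%, 88.16% and 89.04% in DCBQ samples and 86.55%, 88.07% and 88.20% in control samples, and its body (30 CpGs) 88.45% ± 0.30 in DCBQ samples and 88.04% ± 1.04 in control samples (SD, n = 3). HOXB2, its neighbour with a role in the same part of the embryo, was methylated at its 5′ end, at 94.66%, 93.73% and 94.90% in DCBQ samples and 95.98%, 96.43% and 93.78% in control samples (12 CpGs). Its 3′ window (59 CpGs) read 79.78% ± 1.01 in DCBQ samples and 80.69% ± 0.70 in control samples. The groups overlapped at both genes. The inside of HOXB2 was low, at 31.59% ± 0.82 in DCBQ samples and 31.50% ± 0.15 in control samples over 81 CpGs.

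HOXB3 spans several others in the annotation, and its 383 body CpGs averaged 45.02% ± 0.13 in DCBQ samples and 45.28% ± 0.55 in control samples (SD, n = 3). HOXB4, a gene known for expanding blood stem cells, had the lowest window together with HOXB9. Its 5′ window (chr17:48577850-48579850, 35 CpGs) read 2.40%, 1.36% and 1.40% in DCBQ samples and 1.91%, 1.44% and 1.27% in control samples, and its body (22 CpGs) averaged 1.33% ± 0.61 in DCBQ samples and 1.44% ± 0.47 in control samples. HOXB4 was nearly unmethylated in both, and its groups overlapped. The 3 CpGs measured at its 3′ end averaged 73.57% in DCBQ samples and 74.38% in control samples.

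HOXB5, which acts in trunk and gut development, had a methylated body (38 CpGs) at 86.35%, 85.71% and 86.79% in DCBQ samples and 87.05%, 88.19% and 88.03% in control samples. Its 5′ window (31 CpGs) averaged 40.98% ± 2.06 in DCBQ samples and 42.67% ± 0.15 in control samples (SD, n = 3). That mean mixes unlike levels, since 14 of the 31 CpGs are also in the methylated 3′ window of HOXB6. The groups did not overlap in the HOXB5 body. HOXB6, its trunk neighbour, was methylated in both end windows. The 5′ window (10 CpGs) read 86.19% ± 1.09 in DCBQ samples and 84.81% ± 0.77 in control samples. The 3′ window (15 CpGs, 14 of them shared with the HOXB5 window) read 85.72% ± 4.22 in DCBQ samples and 88.92% ± 0.66 in control samples. The 10 CpGs of the 5′ window lie outside the gene, above chr17:48606001, and are also those of the 3′ window of HOXB7. The span of HOXB6 held 111 CpGs and its body 110, so these windows measured mostly its flanks. Between the windows the body of HOXB6 was low, at 29.89% ± 0.87 in DCBQ samples and 29.65% ± 0.85 in control samples over 110 CpGs. Low 5mC within a gene, with methylated CpGs at its ends or beyond them, was thus seen in HOXB2 and in HOXB6.

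HOXB7, a gene often raised in carcinomas, and HOXB8, which acts in spinal cord and blood development, had windows on either side of the 20% limit. That of HOXB7 (chr17:48610517-48612517, 58 CpGs) read 17.11%, 16.64% and 16.02% in DCBQ samples and 17.33%, 17.64% and 17.56% in control samples. That of HOXB8 (chr17:48610846-48612846, 26 CpGs) read 36.90%, 34.99% and 34.06% in DCBQ samples and 37.03%, 37.17% and 37.65% in control samples. All 26 CpGs of the HOXB8 window are also in the HOXB7 window, so these are one observation. At each gene the DCBQ samples were all below the control samples. Both means mix unlike levels. The 2 bins at chr17:48610001-48612000 (77 CpGs), which cover the 5′ end of HOXB7, averaged 1.97% in DCBQ samples and 2.04% in control samples. The bin after them, chr17:48612001-48613000 (16 CpGs), averaged 57.33% in DCBQ samples and 61.29% in control samples. At the 5′ end of HOXB8, 4 CpGs averaged 55.14% ± 3.17 in DCBQ samples and 54.66% ± 6.32 in control samples (SD, n = 3). The body of HOXB8 (94 CpGs) averaged 31.16% ± 2.97 in DCBQ samples and 29.46% ± 2.02 in control samples, the largest spread between samples among the 10 HOXB gene bodies.

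HOXB9 and HOXB13, the posterior genes of the cluster, contrasted with each other. The 5′ window of HOXB9 (chr17:48625858-48627858, 50 CpGs) read 1.28%, 0.89% and 1.002% in DCBQ samples and 1.22%, 1.38% and 1.11% in control samples. HOXB13, a prostate lineage factor that lies apart from the rest of the cluster, read 31.06%, 32.48% and 30.78% in DCBQ samples and 29.66%, 30.04% and 28.53% in control samples at its 5′ end (chr17:48728250-48730250, 41 CpGs). The groups overlapped at HOXB9 and did not at HOXB13. The HOXB13 body (35 CpGs) was methylated, at 84.76% ± 0.63 in DCBQ samples and 85.12% ± 0.85 in control samples (SD, n = 3).

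Of the antisense and long non-coding RNA genes, which are transcribed among the HOXB genes, HOXB-AS2 and HOXBLINC had low windows. HOXB-AS2 (27 CpGs) read 9.55%, 13.29% and 13.27% in DCBQ samples and 15.97%, 14.97% and 11.61% in control samples. HOXB-AS1 averaged 31.92% ± 0.69 in DCBQ samples and 31.70% ± 0.41 in control samples (87 CpGs), which overlap HOXB2. Its mean mixes the low HOXB2 bin described above with the methylated bin after it. HOXB-AS3, HOXB-AS4 and LINC02086 were methylated, at 87.06% ± 2.65, 86.67% ± 2.65 and 92.12% ± 0.36 in DCBQ samples and 89.12% ± 0.76, 85.67% ± 0.93 and 91.47% ± 1.46 in control samples (SD, n = 3). A patch of 35 CpGs at chr17:48646001-48647000, at the upper end of LINC03057 and inside LINC02086, was unmethylated amid these, at 1.36% ± 0.14 in DCBQ samples and 1.12% ± 0.62 in control samples. The windows of LOC105371808, PRAC1, PRAC2 and MIR3185 averaged 83.46% to 90.22% in DCBQ samples and 81.64% to 90.13% in control samples.

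**Figure D2:**
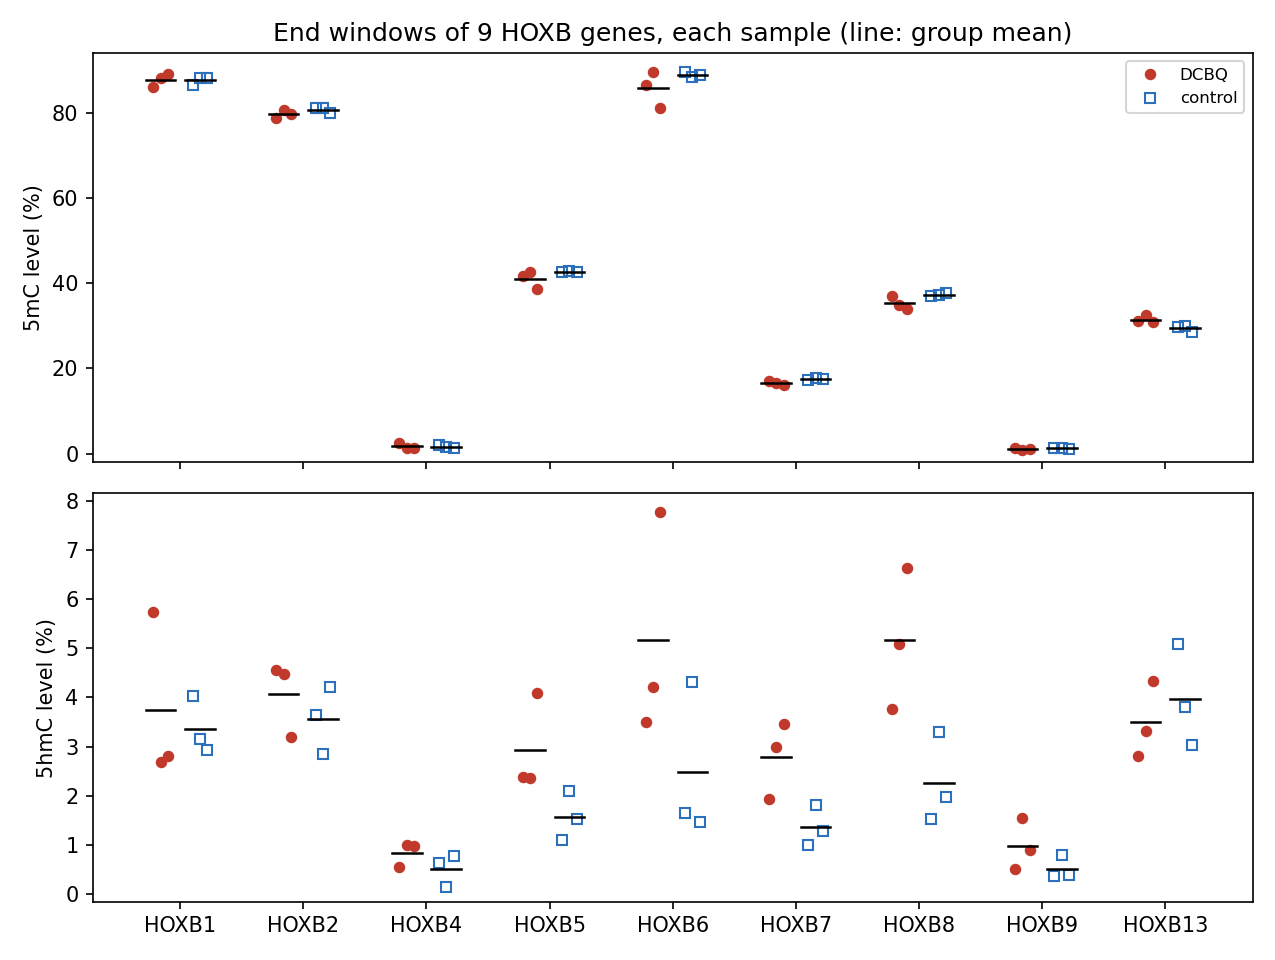
5mC (top) and 5hmC (bottom) level (%) in the end windows of the 9 HOXB genes with at least 5 CpGs, in each of 3 DCBQ (filled) and 3 control (open) samples, with a line at each group mean. 5mC runs from about 1% at HOXB4 and HOXB9 to over 80% at HOXB1 and HOXB6; the HOXB8 window lies within that of HOXB7.

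The first comparison asks whether DCBQ altered 5mC in the cluster. Mean 5mC over the 1699 CpGs was 51.99%, 51.35% and 51.59% in DCBQ samples and 51.93%, 51.55% and 51.26% in control samples. The groups overlapped, and the difference was 0.06 percentage points (SE 0.27, n = 3 each, exact two-sided permutation p = 0.7). A group size of 3 allows only 20 relabellings and no p below 0.1, so a threshold of 0.05 is out of reach. The sign of the difference turned when DCBQ replicate 1 (-0.11 points) or control replicate 3 (-0.10 points) was left out. It was 0.21 points when each bin of 1 kb had the same weight and 0.67 points between medians over bins.

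Over all CpGs of the table, mean 5mC was 54.06%, 54.24% and 54.08% in DCBQ samples and 54.72%, 54.45% and 54.46% in control samples, a difference of -0.42 points (SE 0.11, exact two-sided permutation p = 0.1), and the groups did not overlap. Expressed relative to that mean, the HOXB cluster was at -2.07, -2.89 and -2.50 points in DCBQ samples and -2.79, -2.90 and -3.20 points in control samples. DCBQ samples were thus 0.48 points higher on this relative scale (SE 0.27, exact two-sided permutation p = 0.2), and the groups overlapped. Without DCBQ replicate 1 this value was 0.27 points. The level in the cluster was below that of all CpGs in 6 of 6 samples.

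None of the HOXB genes passed the threshold for 5mC, a Benjamini-Hochberg adjusted p of 0.05 from limma over all units of a kind. Of the 20 gene windows 0 passed, as did 0 of the 23312 gene windows tested in all (0%). An unadjusted p under 0.05 was reached by 1 of the 20, against 6.73% of all windows. The groups did not overlap in 4 of the 20, against 11.9% of all windows. Windows read lower in DCBQ samples in 10 of the 20, against 60.2% of all windows, and the median difference was 0.03 points in the cluster and -0.11 points over all.

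The 4 windows without overlap were those of HOXBLINC, HOXB7, HOXB8 and HOXB13. HOXBLINC, an RNA gene between HOXB4 and HOXB5 that recruits activating complexes to the cluster in mouse, read 5.43%, 5.96% and 5.21% in DCBQ samples and 7.68%, 6.53% and 6.17% in control samples (29 CpGs), a difference of -1.26 points (SE 0.45, limma adjusted p = 0.697). HOXB13 was 2.03 points higher in DCBQ samples (SE 0.84, limma adjusted p = 0.743). HOXB7 differed by -0.92 points (SE 0.47, limma adjusted p = 0.804), and the window of HOXB8 within it by -1.97 points (SE 1.002, limma adjusted p = 0.805). These values depend on the window: with 500 bp on each side of the gene end, HOXB13 differed by 0.11 points, HOXB7 by 0.19 points, with the opposite sign, and HOXB8 by -5.69 points, and 0 windows passed. Of the bins that overlap the HOXB7 window, chr17:48610001-48611000 differed by -0.18 points, chr17:48611001-48612000 by 1.03 points and chr17:48612001-48613000 by -3.95 points. With windows at the 5′ end of every HOXB gene, an alternative chosen after seeing the data, 4 of 8 were lower in DCBQ samples and 0 passed.

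Gene bodies gave the same count. Of the 19 measured in the cluster 0 passed, as did 0% of 25857 in all, and 2 had an unadjusted p under 0.05, against 7.92% of all bodies. These were the body of HOXB5, given above, with a difference of -1.48 points (SE 0.58, limma adjusted p = 0.629), and that of HOXBLINC. HOXBLINC read 78.17%, 77.40% and 79.50% in DCBQ samples and 77.16%, 75.06% and 75.39% in control samples over 45 CpGs, a difference of 2.49 points (SE 0.87, limma adjusted p = 0.610). Its body and its window thus differed in opposite directions, and neither passed the threshold. In 9 of the 19 bodies the DCBQ samples were lower, against 67.9% of all bodies.

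Among bins of 1 kb, 0 of 70 in the cluster and 0% of 210465 in all passed for 5mC. An unadjusted p under 0.05 was reached by 5 of the 70, against 6.20% of all bins, and the groups did not overlap in 10, against 11.5% of all bins. DCBQ samples were lower in 29 of the 70 (41.4%), against 59.9% of all bins, with a median difference of 0.19 points in the cluster and -0.33 points over all bins. Of 19 bins of 10 kb, 0 passed, as did 0% of 83079 in all, and 0 had an unadjusted p under 0.05, against 6.91% of all.

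The 3 bins with the smallest p among those lower in DCBQ samples were in HOXB6 and HOXB3. Within HOXB6 and HOXB-AS3, chr17:48602001-48603000 (14 CpGs) read 20.58%, 22.26% and 19.18% in DCBQ samples and 24.05%, 25.22% and 23.46% in control samples, a difference of -3.57 points (SE 1.08, limma adjusted p = 0.744). Inside the annotated span of HOXB3 and within the HOXBLINC window, chr17:48585001-48586000 (20 CpGs) differed by -1.17 points (SE 0.45, limma adjusted p = 0.793). The next bin, chr17:48586001-48587000 (24 CpGs), differed by -3.72 points (SE 1.76, limma adjusted p = 0.820), and its groups overlapped.

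The 3 bins with the smallest p among those higher in DCBQ samples were in HOXBLINC, in HOXB9 and between HOXB8 and HOXB9. That of HOXBLINC, chr17:48581001-48582000 (7 CpGs), read 85.63%, 85.37% and 85.49% in DCBQ samples and 83.70%, 80.50% and 80.79% in control samples, a difference of 3.83 points (SE 1.19, limma adjusted p = 0.745). In HOXB9, at the jump described above, chr17:48624001-48625000 (12 CpGs) read 13.94%, 14.93% and 15.76% in DCBQ samples and 12.84%, 13.21% and 11.60% in control samples. Its difference was 2.33 points (SE 0.73, limma adjusted p = 0.745). The third, chr17:48618001-48619000 (14 CpGs, in no annotated gene), differed by 1.87 points (SE 0.72, limma adjusted p = 0.793).

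Of the 1699 CpGs, 1632 varied between samples and were tested one by one. Again 0 passed, as did 0% of 3419211 in all, and 75 had an unadjusted p under 0.05 (36 lower and 39 higher in DCBQ samples), which is 4.60% against 4.69% of all CpGs. The CpG with the smallest p that read at least 10 points lower was chr17:48613167 in HOXB8, at 0%, 5.3% and 0% in DCBQ samples and 26.7%, 12.5% and 20% in control samples (limma adjusted p = 0.875). Next were chr17:48608205 in HOXB7, at 88.9%, 85.7% and 92.3% in DCBQ samples against 100% in each control sample (limma adjusted p = 0.879), and chr17:48695281 in LINC02086, -12.9 points (limma adjusted p = 0.894). In the other direction, chr17:48597587 in HOXB6 read 25.7%, 26.2% and 21.2% in DCBQ samples and 12.5%, 14.3% and 10% in control samples (limma adjusted p = 0.898). Then came chr17:48618258 between HOXB8 and HOXB9, 12.5 points higher (limma adjusted p = 0.898), and chr17:48649059 in LINC02086, 19.5 points higher (limma adjusted p = 0.913). The read depth behind these single values is unknown.

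5hmC was low along the whole cluster. Its mean over the 1687 CpGs was 3.17%, 3.11% and 3.24% in DCBQ samples and 3.22%, 3.13% and 3.21% in control samples, a difference of -0.01 points (SE 0.05, exact two-sided permutation p = 0.9). The groups overlapped. With each bin of 1 kb weighing the same, the difference was -0.19 points (exact two-sided permutation p = 0.3). Relative to the mean of all CpGs the cluster was at -0.29 points ± 0.08 in DCBQ samples and -0.18 points ± 0.07 in control samples (SD, n = 3 each, exact two-sided permutation p = 0.2). Between 49.6% and 53.5% of the CpGs were at 0 in each sample, and 8.42% to 9.48% were above 10%.

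The measured 5hmC level was highest where 5mC was intermediate. With the read depth unknown, how far measurement noise differs between the classes of 5mC was not tested. CpGs with 20% to 80% 5mC (377) averaged 6.22% ± 0.41 5hmC in DCBQ samples and 6.10% ± 0.57 in control samples (SD, n = 3). Those with more 5mC (682) averaged 2.61% ± 0.15 in DCBQ samples and 2.73% ± 0.23 in control samples, and those with less (628) 1.95% ± 0.10 in DCBQ samples and 1.93% ± 0.18 in control samples. Over all CpGs of both tables the corresponding levels were 6.48%, 3.06% and 1.55% in DCBQ samples and 6.43%, 2.86% and 1.55% in control samples.

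**Figure D3:**
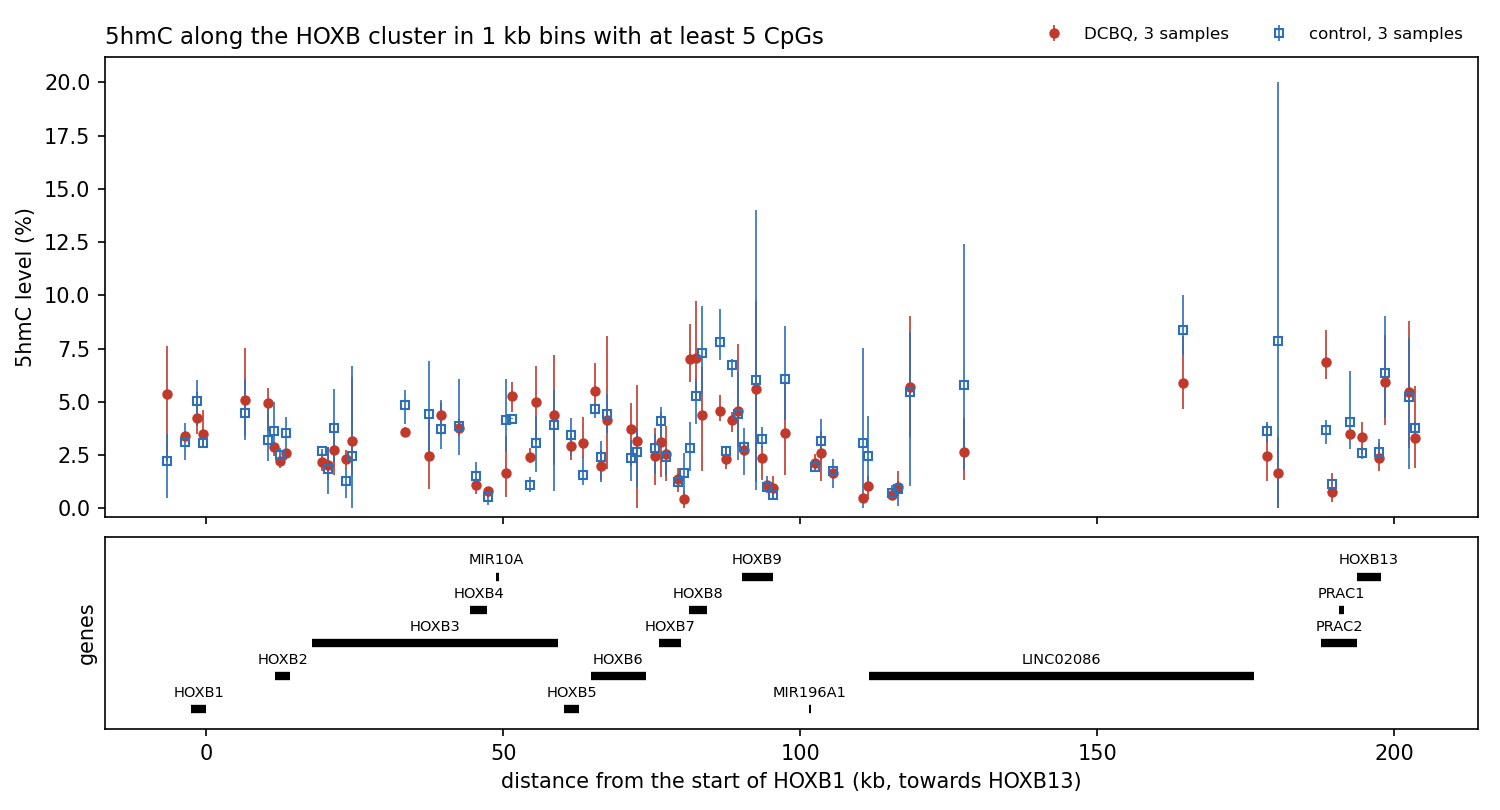
5hmC level (%) in the 70 bins of 1 kb with at least 5 CpGs, against distance from the start of HOXB1 in kb, drawn as for 5mC. The bars, from the lowest to the highest of 3 samples, are wide against the differences between bins, and unmethylated blocks such as those at HOXB4 and HOXB9 lie near 1%.

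The pattern of 5hmC was far less alike between samples than that of 5mC. Across the 70 bins the correlation between samples ran from 0.11 to 0.58 (median 0.32 over 15 pairs of samples) for 5hmC and from 0.993 to 0.998 for 5mC. Across single CpGs the medians were 0.20 for 5hmC and 0.98 for 5mC. These are descriptions, since bins share libraries and their depth is unknown. The 3 bins with the highest mean 5hmC were in LINC02086 (chr17:48695001-48696000, 13 CpGs), between HOXB8 and HOXB9 (chr17:48617001-48618000, 5 CpGs) and in HOXB8 (chr17:48613001-48614000, 49 CpGs). They read 5.90% ± 1.90, 4.55% ± 0.65 and 7.07% ± 2.43 in DCBQ samples and 8.36% ± 1.47, 7.83% ± 1.32 and 5.30% ± 1.14 in control samples (SD, n = 3).

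No unit of the cluster passed the threshold for 5hmC. Of 20 gene windows 0 passed (0% of 23076 in all), and 3 had an unadjusted p under 0.05, against 5.02% of all. The groups did not overlap in 4 of the 20, against 10.1% of all windows. Of 19 gene bodies 0 passed (0% of 25549 in all) and 0 had an unadjusted p under 0.05, against 5.19% of all. Of 70 bins of 1 kb 0 passed (0% of 201935 in all), 3 had an unadjusted p under 0.05, against 4.83% of all, and the groups did not overlap in 7, against 9.94%. Of 19 bins of 10 kb 0 passed (0% of 79536 in all) and 1 had an unadjusted p under 0.05, against 4.98% of all. Of 1585 CpGs that varied 0 passed, against 3 of 3153081 in all (9.51e-05%), and 26 (1.64%) had an unadjusted p under 0.05, against 1.98% of all.

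In the windows of HOXB7 and HOXB8, but not in their bodies, 5hmC read higher in DCBQ samples. The HOXB8 window read 3.77%, 5.10% and 6.64% in DCBQ samples and 1.52%, 3.30% and 1.98% in control samples, a difference of 2.903 points (SE 0.99, limma adjusted p = 0.962). The HOXB7 window that contains it read 1.94%, 2.99% and 3.46% in DCBQ samples and 1.003%, 1.81% and 1.29% in control samples, a difference of 1.43 points (SE 0.54, limma adjusted p = 0.962). Neither window's groups overlapped, and neither difference passed the threshold. Of the bins that overlap the HOXB7 window, chr17:48610001-48611000 differed by 0.15 points, chr17:48611001-48612000 by -1.19 points and chr17:48612001-48613000 by 4.15 points. The bodies read 1.81% ± 0.29 at HOXB7 and 5.67% ± 0.81 at HOXB8 in DCBQ samples, and 2.13% ± 0.66 at HOXB7 and 6.01% ± 1.11 at HOXB8 in control samples (SD, n = 3), and their groups overlapped.

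HOXB5 and HOXBLINC were the others without overlap. HOXB5 read 2.37%, 2.35% and 4.09% in DCBQ samples and 1.11%, 2.09% and 1.52% in control samples (limma adjusted p = 0.962). HOXBLINC read 3.01%, 2.37% and 1.68% in DCBQ samples and 1.45%, 0.77% and 1.21% in control samples (limma adjusted p = 0.962). In the windows described above, 8 of 9 HOXB genes read higher in DCBQ samples, where 46.4% of all gene windows read lower. This direction was not shared by other units: 7 of 10 HOXB gene bodies read lower in DCBQ samples, against 44.2% of all bodies, as did 39 of the 70 bins of 1 kb (55.7%), against 47.2% of all bins. The 9 windows are also not separate observations, since those of HOXB7 and HOXB8, and of HOXB5 and HOXB6, share CpGs. With 500 bp on either side of the gene end, the differences were 6.14 points at HOXB8, 0.33 points at HOXB7, 0.41 points at HOXB5 and -1.36 points at HOXB2, where the wider window gave 0.51 points. Among the 9 windows HOXB13 was the exception, at 3.49% ± 0.78 in DCBQ samples and 3.97% ± 1.04 in control samples (SD, n = 3). With windows at the 5′ ends the count was 5 of 8, as HOXB2 and HOXB6 then differed by -0.34 and -0.38 points and HOXB8 had too few CpGs, so the count depends on the end used.

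The 3 bins with the smallest p among those with higher 5hmC in DCBQ samples were at HOXB8, HOXB3 and PRAC2. Over HOXB8, chr17:48612001-48613000 (16 CpGs) read 5.95%, 6.37% and 8.67% in DCBQ samples and 1.77%, 4.05% and 2.72% in control samples, a difference of 4.15 points (SE 1.53, limma adjusted p = 0.973). Inside the span of HOXB3, chr17:48585001-48586000 read 2.81%, 2.32% and 2.13% in DCBQ samples and 1.46%, 0.79% and 1.01% in control samples, a difference of 1.33 points (SE 0.51, limma adjusted p = 0.973). In PRAC2, chr17:48719001-48720000 (47 CpGs) read 6.07%, 6.22% and 8.37% in DCBQ samples and 3.01%, 4.16% and 3.84% in control samples, a difference of 3.22 points (SE 1.53, limma adjusted p = 0.973). All 3 were higher in each DCBQ sample than in any control sample.

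Lower 5hmC in DCBQ samples was seen at HOXB7, at HOXBLINC and between HOXB8 and HOXB9, in the 3 such bins with the smallest p. The bin at HOXB7, chr17:48611001-48612000 (7 CpGs), differed by -1.19 points (SE 0.49, limma adjusted p = 0.973). At HOXBLINC, chr17:48581001-48582000 differed by -2.50 points (SE 1.23, limma adjusted p = 0.973), and the groups overlapped in both bins. The third, chr17:48617001-48618000, read 4.12%, 5.30% and 4.23% in DCBQ samples and 6.97%, 7.17% and 9.36% in control samples, a difference of -3.28 points (SE 1.76, limma adjusted p = 0.973). Over the whole stretch between HOXB9 and PRAC2 (243 CpGs), 5hmC was 2.36%, 2.12% and 2.68% in DCBQ samples and 3.03%, 3.29% and 2.88% in control samples. The groups did not overlap there, and the difference was -0.68 points (SE 0.20). In the stretches on either side the groups overlapped. The difference was 0.74 points (SE 0.38) from PRAC2 upwards (181 CpGs) and 0.0059 points (SE 0.11) up to HOXB9 (1263 CpGs). These differences of stretches were not tested.

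At single CpGs, 5hmC rested on values of 0 in whole groups. The CpG with the smallest p among those at least 10 points lower was chr17:48619481, between HOXB8 and HOXB9, at 0% in each DCBQ sample and 23.1%, 16.7% and 22.7% in control samples (limma adjusted p = 0.781). It was followed by chr17:48614383 in HOXB8, at 0% in each DCBQ sample and 12.5%, 11.1% and 22.2% in control samples, and by chr17:48711754, where a single control sample reached 40%. On the other side, the smallest p were at chr17:48541664 beside HOXB2, at 11.1%, 20% and 12.5% in DCBQ samples and 0% in each control sample, chr17:48613171 in HOXB8 and chr17:48719384 in PRAC2 (limma adjusted p = 0.781 for each). In the last pair, 1 DCBQ sample read 42.9% and 33.3%, and another read 0% at both.

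The marks differed in opposite directions at many places. Of the 70 bins, 52 (74.3%) had a DCBQ minus control difference of opposite sign in 5mC and 5hmC, against 69.5% of 201907 bins in all. The correlation of the differences across the 70 bins was -0.74 (Pearson) and -0.66 (Spearman), against a Pearson value of -0.61 over all bins. The bin farthest out, chr17:48711001-48712000 (5 CpGs), was singled out after its values were seen. It read 95.56%, 100% and 96.34% 5mC in DCBQ samples and 94.54%, 80% and 100% in control samples, and 3.33%, 0% and 1.67% 5hmC in DCBQ samples and 3.64%, 20% and 0% in control samples, so 1 control sample sets it apart. Bins share samples and both marks come from the same pair of assays, whose combination by the authors is not described in the labels, and the part this plays in the opposite signs was not tested.

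**Figure D4:**
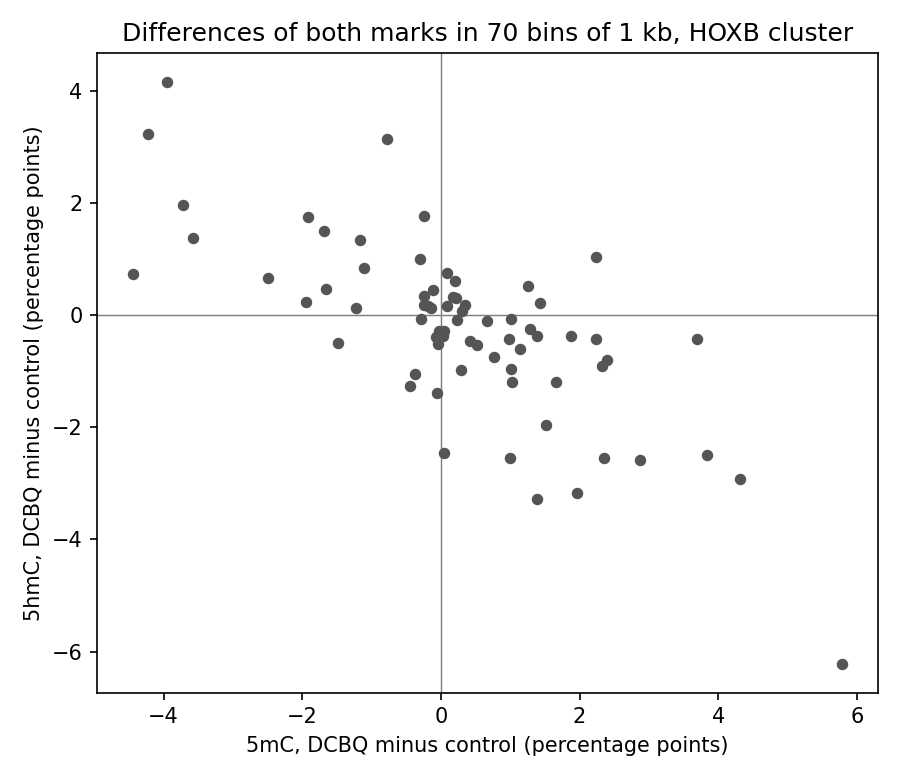
Difference between DCBQ and control means in 5mC (horizontal axis) and 5hmC (vertical axis), in percentage points, for each of 70 bins of 1 kb in the HOXB cluster. Most points (52) lie in the upper left or lower right, where the marks differ in opposite directions.

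At the HOXB8 bin chr17:48612001-48613000, 5mC was 59.39%, 56.38% and 56.22% in DCBQ samples and 59.69%, 61.58% and 62.59% in control samples, a difference of -3.95 points (SE 1.34), where 5hmC differed by 4.15 points. The sum of both marks there was 64.33% ± 1.38 in DCBQ samples and 64.13% ± 2.32 in control samples (SD, n = 3). At the HOXB3 bin chr17:48585001-48586000 the sum was 8.87% ± 0.76 in DCBQ samples and 8.71% ± 0.67 in control samples. The HOXB6 bin chr17:48602001-48603000 was unlike these: its sum was 25.50%, 24.27% and 23.48% in DCBQ samples and 26.65%, 26.51% and 26.68% in control samples, again without overlap. The sum exceeded 100%, by more than 0.1 points, at 2.79% to 4.56% of the cluster's CpGs per sample, so it is approximate.

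Over the whole stretch up to HOXB13, the HOXB cluster had the highest 5mC of the 4 HOX clusters. Its mean of 51.64% ± 0.32 in DCBQ samples and 51.58% ± 0.33 in control samples (SD, n = 3) compares with 50.18% ± 0.19, 46.00% ± 0.10 and 40.51% ± 0.21 in HOXA, HOXC and HOXD in DCBQ samples, and with 50.49% ± 0.23, 46.40% ± 0.36 and 40.24% ± 0.21 in HOXA, HOXC and HOXD in control samples. The rank rests on the CpGs above HOXB9: those up to HOXB9, given above, averaged 45.53% in DCBQ samples and 45.46% in control samples, below HOXA and HOXC. Over the whole stretch the gap over the 6 samples was 1.28 points to HOXA, 5.41 to HOXC and 11.2 to HOXD, and HOXB was higher in 6 of 6 samples against each (exact two-sided sign-flip test, n = 6, adjusted p = 0.0312 over 3 comparisons). For 5hmC, HOXB was 0.52 points above HOXA in 6 of 6 samples (exact sign-flip test, adjusted p = 0.0469) and differed by -0.42 points from HOXD, lower in 6 of 6 (exact sign-flip test, adjusted p = 0.0469). Against HOXC it was 0.02 points higher on average, and lower in 3 of 6 samples (exact sign-flip test, adjusted p = 0.906).

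**Figure D5:**
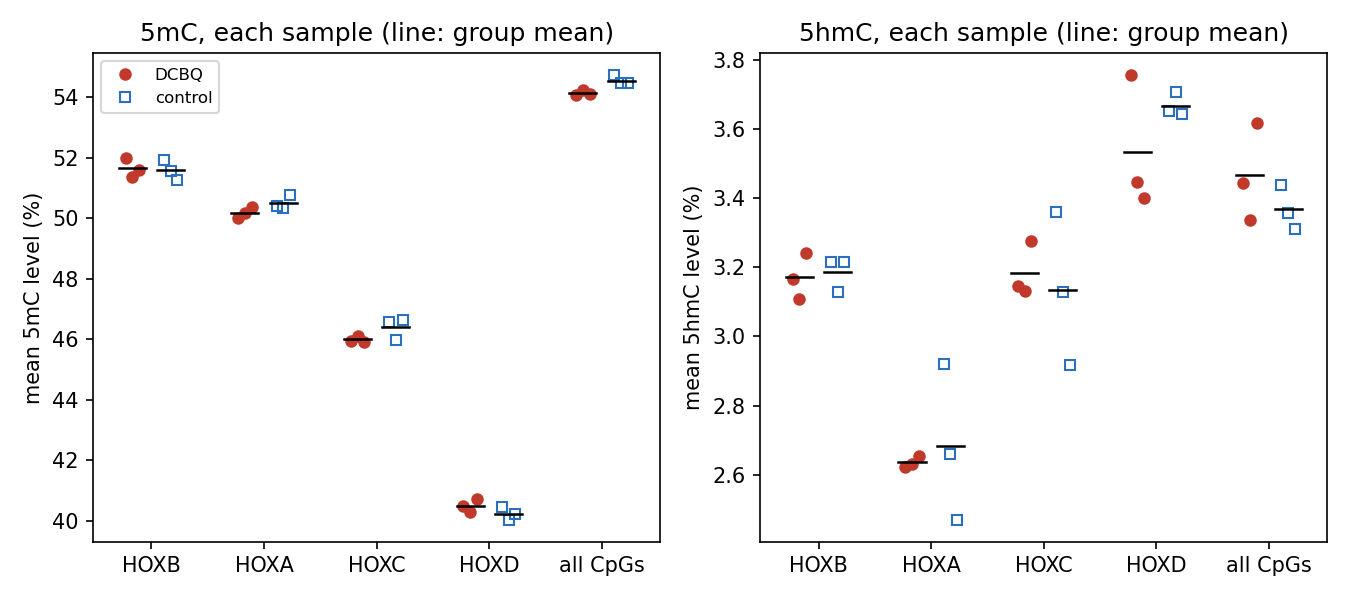
Mean 5mC (left) and 5hmC (right) level (%) over the CpGs of each HOX cluster and over all CpGs, in each of 3 DCBQ (filled) and 3 control (open) samples, with a line at each group mean; axes do not start at 0. Over its whole stretch HOXB lies highest in 5mC among the HOX clusters in every sample, and its DCBQ and control samples overlap in both marks.

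The difference between DCBQ and control samples was not shown to be particular to HOXB. For 5mC the difference in HOXB exceeded that in HOXA by 0.37 points (SE 0.40) and that in HOXC by 0.46 points (SE 0.37), and relative to HOXD it differed by -0.21 points (SE 0.24). Leaving out control replicate 3 brought these to 0.08 and 0.18 points for HOXA and HOXC, and leaving out DCBQ replicate 1 to 0.11 and 0.27 points. Leaving out DCBQ replicate 3 brought that for HOXD to -0.07 points. The exact two-sided permutation p, adjusted over the 3 comparisons, was 0.6 for each. For 5hmC these differences were 0.03 points (SE 0.13), -0.06 points (SE 0.13) and 0.12 points (SE 0.13), with an adjusted exact permutation p of 0.8 for each. None of these tests could pass 0.05 at this number of samples.

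Genes that work with HOX proteins or control them showed no call either. For 5mC, 0 of 8 measured windows of TALE cofactors (the PBX, MEIS and PKNOX group, which bind DNA with HOX proteins) passed, with 4 lower and 4 higher in DCBQ samples, and their median level was 1.44% in DCBQ samples and 1.69% in control samples. Of 30 measured windows of regulators of HOX genes (CDX factors, retinoic acid receptors and enzymes, Polycomb and Trithorax members, CTCF and others), 0 passed, with 20 lower and 10 higher in DCBQ samples and a median difference of -0.14 points, against -0.11 over all windows. For 5hmC 0 of 8 and 0 of 29 passed. The windows of epithelial and urothelial markers were mostly unmethylated (10 of 15 under 20%), with a median of 6.52% in DCBQ samples and 6.37% in control samples. This was not particular to them, since 7 of 8 windows of TALE cofactors and 19 of 30 of regulators were also under 20%. Those of leukocyte and endothelial markers had a median of 77.4% in DCBQ samples and 80.4% in control samples (7 measured). Those of fibroblast markers had a median of 55.3% in DCBQ samples and 54.9% in control samples (3 measured, 1 under 20% and 0 over 80%). Where no strand was given, these windows are at the gene end with more measured CpGs, which need not be the start. Levels in them do not measure expression.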

How the data were processed

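Levels came from tables deposited by the authors: a fraction from 0 to 1 per CpG, for 5mC and for 5hmC, in 6 columns per table named by condition and number. Here they are printed as percent. The submitters' processing notes name hg38, BSMAP 2.90, Trim Galore and cutadapt, without their roles or how RRBS and oxRRBS were combined. The deposited tables carry a 5x mark in their names but no depth per CpG, so no interval from reads is given. No column belonged to another sample.

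Mean levels per gene window, gene body (at least 5 CpGs), 1 kb bin (5), 10 kb bin (10) and varying CpG were fitted over the whole table with limma 3.58.1 in R 4.3.3 (lmFit, eBayes with trend) and adjusted by Benjamini-Hochberg at 0.05, for CpGs also at least 10 points. The fit was also run on simulated data, which does not show that differences as small as those seen here would pass. Errors of limma differences are its SE; others come from the spread of samples. Single values used exact tests (Python 3.11.15, scipy 1.17.1, figures with matplotlib 3.10.9). Other HOX clusters were the span of their protein-coding genes with 5000 bp either side. RefSeq tables (GRCh38.p14) gave positions; starts and strands came from their promoter entries.

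Named were all genes of the stretch with at least 5 measured CpGs, per mark the 3 bins and 3 CpGs (10 points or more) with the smallest p in each direction, the 3 bins with the highest 5hmC, and jumps of 5mC between under 20% and over 80%. Alternatives included windows of 500 bp either side, other weights over bins, and each replicate left out. The stretch, lists and tests were chosen with earlier results of these data known.

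DCBQ and control columns share replicate numbers. Over 1 kb bins, deviations of same-numbered samples correlated at 0.0005, 0.0064 and -0.0039 for 5mC and -0.015, 0.0092 and -0.0345 for 5hmC, and the labels name no shared batch, so samples were not treated as paired.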

Additional observations from a re-analysis of the deposited data

How the results depend on the processing

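The count of passing HOXB units was 0 in all 10 unit tests (5 kinds, 2 marks) and in 122 of 122 alternatives, among them each replicate left out, a replicate block and the 5′ windows added after seeing the data. With 1 replicate left out, the cluster difference ranged from -0.11 to 0.23 points for 5mC and from -0.0482 to 0.0182 points for 5hmC. For 5mC it turned to -0.11 without DCBQ replicate 1 and -0.10 without control replicate 3; for 5hmC to 0.0182 without DCBQ replicate 2, 0.001 without control replicate 1 and 0.0001 without control replicate 3. Between medians over bins the 5hmC difference was -0.10 points. Relative to all CpGs, leaving out 1 replicate gave 0.27 to 0.68 points for 5mC and -0.14 to -0.07 points for 5hmC. The 5mC difference of HOXB minus that of HOXA ranged from 0.08 to 0.60 points, minus that of HOXC from 0.18 to 0.67 and minus that of HOXD from -0.39 to -0.07. The 5hmC difference minus that of HOXD ranged from 0.0175 to 0.23. The 5hmC difference of HOXB minus that of HOXA ranged from -0.0691 (without control replicate 1) to 0.15, and minus that of HOXC from -0.16 to 0.0595 (without control replicate 3). The cause was not tested. Level gaps of HOXB kept their direction but, with 5 samples, could not pass the threshold: 1.13 to 1.43 points to HOXA, 5.29 to 5.57 to HOXC and 11.18 to 11.31 to HOXD for 5mC, and 0.47 to 0.56 to HOXA and -0.47 to -0.39 to HOXD for 5hmC. The exception was HOXC for 5hmC, from -0.036 (without control replicate 3) to 0.0524. A replicate block cannot change the cluster differences themselves, since each number occurs once per group. Their exact paired p was 0.75 for 5mC (0.06 points) and 0.75 for 5hmC (-0.01 points), where the smallest p with 3 pairs is 0.25. No call changed with the block.

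The 3 samples a group and the unknown depth set the precision, and 5hmC values repeated poorly between samples. A minimum coverage could not be tried without coverage, and HOXB windows share CpGs.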
